A study of Mus musculus with 3 samples.

Results

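The distal end of mouse chromosome 11 was examined as a block of c-FOS binding sites in ASZ001, a cell line established from a basal cell carcinoma of the mouse. The block was defined as every listed c-FOS peak of chromosome 11 (mm9 genome) that starts in the stretch from 114000001 to the chromosome end at 121843856. It held 417 of the 1833 peaks of chromosome 11 and of the 15011 peaks in the whole list. The other 1416 peaks of chromosome 11 served as the comparison. All cells expressed activated Ras (RasV12) together with an shRNA that lowers TGFbR1, a receptor for TGF-beta. They had been treated with Dox and 4OHT, and were crosslinked on day 6 of this induction. The series has 2 c-FOS ChIP samples and 1 input of the same genotype and treatment. No sample without induction was analysed here. The whole design rests on 1 cell line, and the peaks are given as 1 list that names no replicate.

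c-FOS is a subunit of AP-1, a dimeric transcription factor in which a FOS protein pairs with a JUN protein through a leucine zipper. AP-1 is switched on by growth factor, Ras and MAP kinase signalling, and in the epidermis it acts at genes of proliferation, stress and squamous differentiation. In ChIP-seq, DNA bound by c-FOS is pulled down with an antibody and sequenced, and a peak is a stretch where the reads pile up.

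The distal end of chromosome 11 holds many genes, among them some that act in epithelia. Only their order was taken, from the RefSeq gene table of GRCm38, which is another build than that of the peaks. Beyond Sox9, a gene for a transcription factor of hair follicle stem cells, the table names 205 protein-coding genes, or 12.7% of the 1609 on the chromosome. In order toward the end they include Grb2, an adaptor that links growth factor receptors to Ras, Llgl2, an epithelial polarity protein, Itgb4, the beta subunit of the hemidesmosome integrin, and Evpl, which encodes the cornified envelope protein envoplakin. Further on lie Rhbdf2, a regulator of the release of EGF receptor ligands, Birc5, which encodes the mitotic protein survivin, Socs3, a feedback inhibitor of cytokine signalling, and Timp2, an inhibitor of matrix metalloproteases. Then follow Card14, a keratinocyte activator of NF-kappaB, Actg1, a cytoplasmic actin, and Mafg, a small MAF protein of the same leucine zipper superfamily as c-FOS. Foxk2, a forkhead factor, is close to the end. A list of 56 genes had been chosen for lying in this part of the chromosome, so finding all 56 beyond Sox9 is no result. Which of them lie inside the block, and which peaks lie in or near them, was not analysed here. Sequences of the peaks were not used here.

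The block took up 6.44% of the length of chromosome 11 and held 22.7% of its peaks (Wilson 95% interval 20.9 to 24.7%). This corresponded to 53.2 peaks per Mb, against 12.4 on the rest of the chromosome and 5.65 over the whole list. The ratio of block to rest was 4.28 (3.84 to 4.77, from the same interval). Density was what chose the block, so these values describe it and were not tested. All intervals given here reflect counting error alone and take peaks as independent, which close peaks are not. Without scores, depth or separate replicates, no spread between samples could be set beside any value, and no difference between the block and the rest of the chromosome was tested.

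c-FOS peaks did not begin to crowd at the proximal edge of the block itself. The last 3 peaks outside it started at 113802382, 113887665 and 113942305 and were 101, 140 and 208 bp wide. The first 3 inside it started at 114055567, 114062984 and 114118958 and were 155, 98 and 129 bp wide. A gap of 113 kb separated the 2 sides. The last 500 kb before the edge held 17 peaks and the first 500 kb after it held 9. The first window of 1 Mb in the block held 21 peaks, more than the median of 8 in the windows before the edge, but 27 of those windows (23.7%) held at least as many.

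The rise came in the next window. From 115000001 on, successive windows of 1 Mb held 75, 59, 86, 52, 46 and 69 peaks, and the remaining 0.844 Mb at the chromosome end held 9. These 6 windows contained 387 peaks, or 92.8% of the block, at 64.5 per Mb. Elsewhere on chromosome 11 the median window held 8 peaks, 19 windows (16.7%) held none, and the highest count was 61. The first listed peak of the chromosome was in the window from 3000001, so the windows before it are among the empty ones. Only 4 of those windows reached 46, the lowest count of the 6. In the 10 windows just before the block, from 104000001 on, counts lay between 1 and 28 with a median of 10.5, and the stretch from 110000001 to 112000000 held 3 peaks in all.

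**Figure D1:**
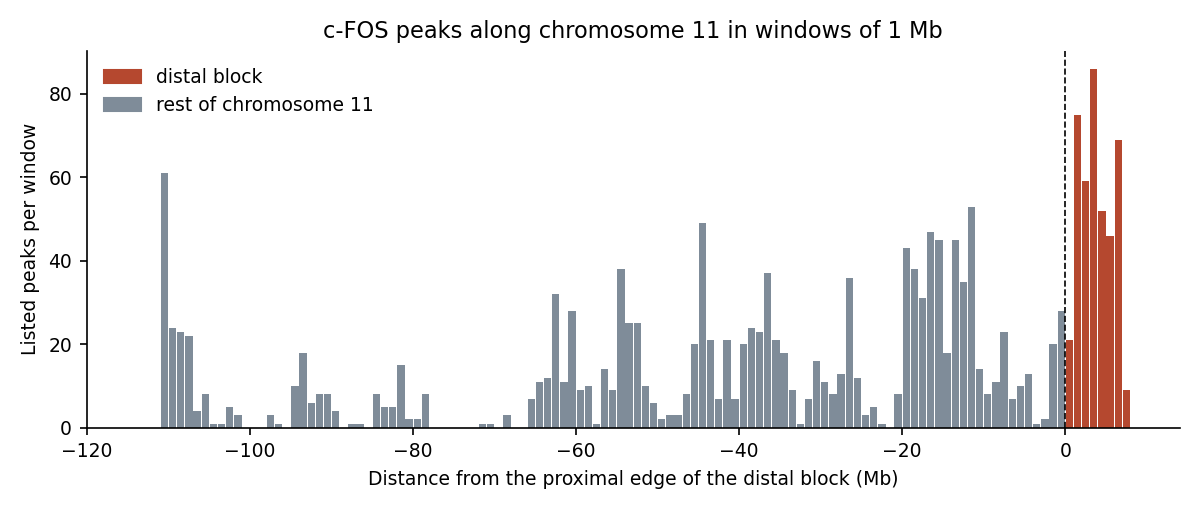
Listed c-FOS peaks in windows of 1 Mb along chromosome 11 (vertical axis, count), against distance from the proximal edge of the block in Mb (dashed line at 0). Windows of the block are red and the rest grey; the last bar covers 0.844 Mb. The 6 tall red bars hold 46 to 86 peaks, while the highest grey bar holds 61.

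Stretches of the length of the block were also counted along every chromosome, in steps of 1 Mb. The fullest one of chromosome 11 began 1 Mb before the block and held 432 peaks. On other chromosomes, the fullest was on chromosome 19 from 3000001 to 10843856 with 324 peaks, followed by chromosome 5 from 134000001 to 141843856 with 287. The fullest stretch of chromosome 11 that ended before the block ran from 95000001 to 102843856 and held 300. The block therefore held 1.29 times the count of the stretch on chromosome 19 and 1.39 times that of the earlier stretch on its own chromosome. All these stretches were picked by their counts.

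Inside the block the peaks were spread over most of the sequence. Of 79 windows of 100 kb, the last of them shorter, 5 held no peak, or 6.33%. On the rest of the chromosome 633 of 1140 such windows, or 55.5%, were empty, including those before the first listed peak. Between 115000001 and 121000000 a single window of 60 was empty. The median window of the block held 4 peaks. At least 10 peaks were found in 11 windows (13.9%), against 10 windows (0.877%) on the rest of the chromosome. The single fullest window of the chromosome was nevertheless outside the block, with 32 peaks against at most 18 within it. The shares of empty and full windows depend on density, which chose the block, so they describe it and were not tested.

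The 5 fullest windows of 100 kb held 75 peaks, or 18.0% of the block. The first in rank ran from 117800001 to 117900000 with 18 peaks, which merging of peaks within 1000 bp reduced to 14 regions. The second ran from 118900001 to 119000000 with 17 peaks in 12 merged regions, and the window after it held another 12. It also held the widest peak of the block. The third, from 115800001 to 115900000, held 14 peaks in 12 merged regions. The remaining pair held 13 peaks each, from 117000001 to 117100000 and from 120500001 to 120600000. Close linking was strongest in the former, where merging left 7 regions. Median peak widths were 168.5, 166, 162.5, 132 and 167 bp in these 5 windows in the order given, so 4 lay above the 155 bp of the whole block and 1 below it.

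**Figure D2:**
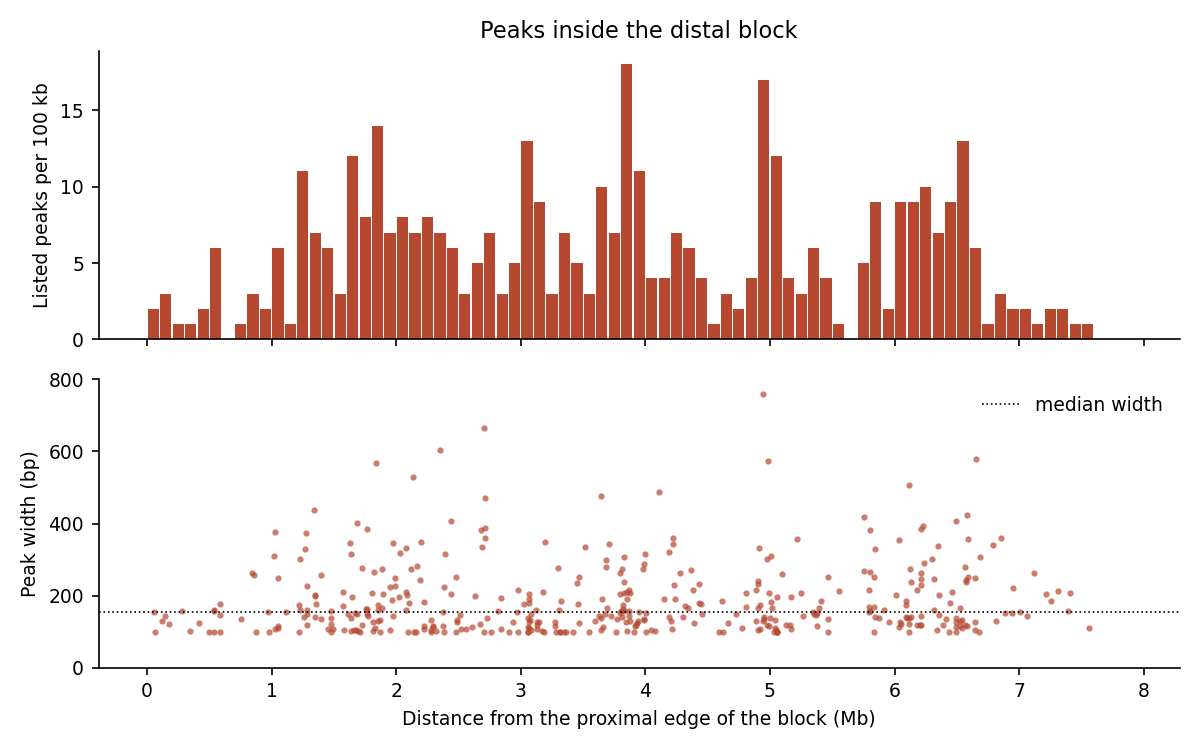
Upper panel, listed peaks in each window of 100 kb of the block; lower panel, width in bp of each of the 417 peaks (points) with the median of 155 bp (dotted line). Both are drawn against distance from the proximal edge in Mb. The tallest bars hold 18 and 17 peaks, and both ends of the block hold fewer peaks than its middle.

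The longest gaps between neighbouring peaks of the block were short beside those elsewhere on the chromosome. They measured 198 kb (119557985 to 119755988), 167 kb (114584916 to 114751555), 158 kb (121405538 to 121563489), 140 kb (118454150 to 118593826) and 111 kb (114171610 to 114282429). The first and the fourth of these lay inside the dense part of the block. In all, 7 of 416 gaps between neighbours exceeded 100 kb, against 223 of 1415 gaps on the rest of the chromosome, where the longest reached 6.99 Mb. Gap length depends on density, which chose the block. Another peak lay within 100 kb of 99.8% of the peaks in the block. In the stretches of the same length on chromosome 5, chromosome 19 and chromosome 11 from 95000001, this share was 98.6, 99.4 and 99.7%. The last peak of the chromosome, at 121563490 to 121563600 and 111 bp wide, lay 280 kb from the chromosome end.

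Neighbouring peaks of the block were close together. The median gap was 8.10 kb (quartiles 1.84 and 24.7 kb), against 20.3 kb (3.63 and 63.5 kb) on the rest of chromosome 11. Of the 417 peaks, 323 or 77.5% had another peak within 10 kb (Wilson 95% interval 73.2 to 81.2%), against 56.8% (54.2 to 59.3%) on the rest. Spacing follows density in part, so this difference is not independent of the density that chose the block. On chromosome 5, chromosome 19 and chromosome 11 from 95000001, stretches of the same length had shares of 70.7, 74.4 and 67.0% within 10 kb. In the 4 windows elsewhere on chromosome 11 that reached 46 peaks, the share was 80.0%. The median distance to the nearest peak was 2.645 kb in the block, 6.556 kb on the rest and 1.805 kb in those windows. In the stretches, in the same order, it was 4.613, 1.304 and 4.615 kb.

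The difference from the rest of the chromosome varied with the distance chosen. Another peak lay within 1 kb of 132 peaks, or 31.7% (27.4 to 36.3%), against 405 peaks or 28.6% (26.3 to 31.0%) on the rest, and these intervals overlap. Within 500 bp the shares were 27.1% (23.1 to 31.6%) and 21.8% (19.7 to 24.0%). Within 2 kb they were 43.9% (39.2 to 48.7%) and 34.2% (31.8 to 36.7%). These shares follow density in part, which chose the block, and the differences were not tested. In the stretches of the same length on chromosome 5, chromosome 19 and chromosome 11 from 95000001, the share within 2 kb was 36.9, 56.5 and 38.0%.

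Other dense parts of the list differed in the share of peaks with a neighbour within 1 kb. In the stretches of the same length named above it was 30.3% (25.3 to 35.9%) on chromosome 5, 34.3% (29.2 to 39.9%) on chromosome 11 from 95000001, and 47.2% (41.9 to 52.7%) on chromosome 19. The interval of the block overlaps the first and the second of these and lies below that of chromosome 19. The 4 windows of 1 Mb elsewhere on chromosome 11 that reached the lowest count of the dense part of the block held 52.5 peaks per Mb together and had a share of 44.8% (38.2 to 51.5%), or 94 of 210 peaks. These windows were chosen after the counts were seen. They did not behave alike: the shares were 49.2% in the window starting at 3000001, 55.1% at 69000001, 47.2% at 102000001 and 25.5% at 97000001. With any 1 of the 4 left out, the share of the other windows lay between 41.6 and 50.3%. Within the block the share ranged from 23.3% in the window from 117000001, which had the most peaks, to 43.5% in the window from 120000001, leaving out the windows at either end.

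Part of the difference from those 4 windows lay below 500 bp, where the shares were 27.1% in the block and 31.0% in the windows, and more of it between 500 bp and 1 kb. A nearest neighbour at that distance was found for 19 peaks of the block (4.56%), against 29 peaks (13.8%) in the 4 windows and 97 peaks (6.85%) on the whole rest. Between 1 and 2 kb the share was instead highest in the block, with 51 peaks (12.2%), against 14 (6.67%) in the 4 windows and 79 (5.58%) on the rest. Both distance classes were picked after the curves were seen, and neither difference was tested.

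**Figure D3:**
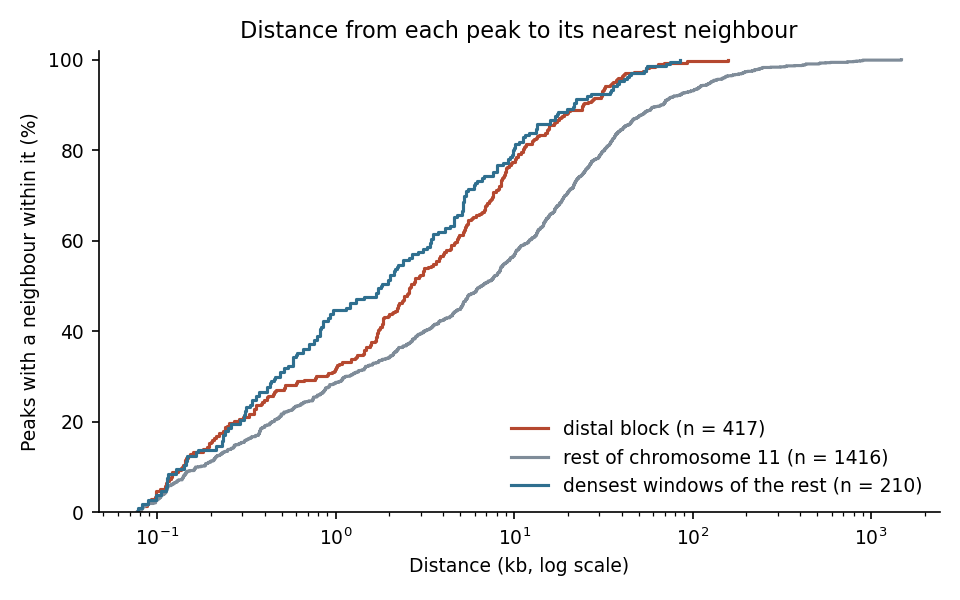
Cumulative share of peaks (vertical axis, %) with their nearest neighbour within a given distance (horizontal axis, kb, log scale), for the block, the rest of chromosome 11 and the 4 densest windows of 1 Mb of that rest. At 1 kb the curves stand at 31.7, 28.6 and 44.8%; at 10 kb they stand at 77.5, 56.8 and 80.0%.

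With peaks joined wherever the gap was 1 kb or less, the block held 55 groups, and 285 peaks stood alone. The groups were 37 pairs, 15 groups of 3, 2 of 4 and 1 of 5. Groups of 3 or more held 58 peaks, or 13.9% of the block, against 105 peaks or 7.42% on the rest of the chromosome. The largest groups were nonetheless elsewhere, since the rest held one of 9 peaks. Linking follows density in part, so this difference in shares is not independent of the density that chose the block. In the 4 dense windows of the rest, a neighbour within 1 kb was more common than in the block (44.8 against 31.7%). Groups of 3 or more were not counted in those windows. The group of 5 ran from 117060764 to 117062444, a span of 1681 bp with peaks of 98 to 180 bp and gaps of 88 to 721 bp. A group of 3 followed it at 117065738 to 117067047. The groups of 4 ran from 115281028 to 115282172 and from 120493898 to 120495330, where peaks covered 57.1 and 55.0% of the span. The group at 116713740 to 116715253 was the most continuous of those with 3 or more members. Its 3 peaks were 359 to 470 bp wide and covered 80.3% of 1514 bp. The other groups of 3 started at 114584133 in the first window, at 115473496 and 115637132 in the second, at 116079682 in the third, at 117640882 and 117823783 in the fourth, at 118901952 in the fifth, at 119051870 and 119464223 in the sixth, and at 120091318, 120209530, 120521740 and 120645184 in the seventh. Groups of 3 or more were thus found in each window except the last, which held no peak with a neighbour within 1 kb.

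Linking over 10 kb joined the 417 peaks into 182 stretches, of which 94 held a single peak. Stretches of at least 5 peaks numbered 24 and held 159 peaks, or 38.1% of the block. The rest of the chromosome also had 24 such stretches, which held 188 peaks or 13.3% of its own. Linking over this distance depends on density, which chose the block, so the difference in shares was not tested. The fullest stretch of the chromosome was outside the block, with 28 peaks. In the block the fullest were a stretch of 12 peaks over 21030 bp (117059621 to 117080650), which contains the group of 5, and one of 12 peaks over 37197 bp (117793575 to 117830771).

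Peak width did not enter the rule. The median was 155 bp in the block (order-statistic 95% interval 147 to 160) with quartiles of 120 and 226 bp, and 162 bp (157 to 168) on the rest of chromosome 11 with quartiles of 118.75 and 229 bp. The difference of 7 bp was small beside the spread of widths within either part, and the intervals overlap. Without the peaks of 98 bp, the lowest width in the list, the medians were 160 and 174 bp. This lowest width was shared by 40 peaks of the block, or 9.59% (Wilson 95% interval 7.12 to 12.8%), and by 10.7% (9.16 to 12.4%) on the rest. Peaks wider than 500 bp made up 1.92% (0.975 to 3.74%) and 1.84% (1.26 to 2.68%). In base pairs, peaks covered 1.01% of the block and 0.239% of the rest. Unlike width, this covered share depends on density, which chose the block, and mean widths were 189 and 193 bp.

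Within the block, the median width was 134 bp in the first window and lay between 145 and 168 bp in the 6 dense windows. The 9 peaks of the last window had a median of 185 bp, and none of them had the lowest width. The median was 159.5 bp for peaks with a neighbour within 1 kb and 152 bp for the other peaks of the block. On the rest of the chromosome these medians were 172 and 158 bp.

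**Figure D4:**
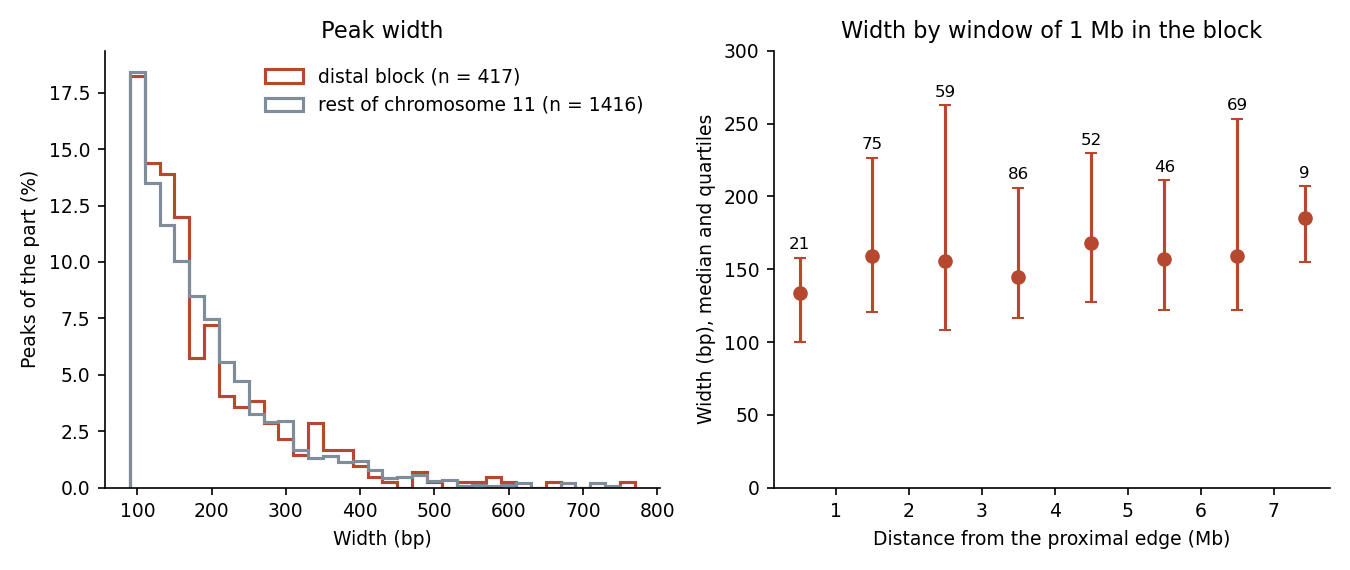
Left, share of peaks (%) by width in bins of 20 bp for the block and the rest of chromosome 11; 3 peaks of the rest at or above 770 bp are beyond the axis. Right, median width (points) and quartiles (bars) in bp in each window of the block, with the number of peaks above each bar; the medians run from 134 to 185 bp.

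The 8 peaks wider than 500 bp all lay in the 6 dense windows, which held 92.8% of all peaks of the block. The widest ran from 118947461 to 118948219 and measured 759 bp, with its nearest neighbour 768 bp away. The next, from 116704794 to 116705457, measured 664 bp and had 4 other peaks within 10 kb. By contrast, the peaks at 116351553 (603 bp) and 120657389 (578 bp) had none within that distance. The fifth, at 118987550, measured 574 bp and had 5. The others started at 115836082 (567 bp), 116135225 (530 bp) and 120118056 (506 bp). Wide peaks in the block were thus found both beside other peaks and alone.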

How the data were processed

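c-FOS ChIP-seq of ASZ001 cells (2 ChIP samples, 1 input) was used as the 1 deposited list of peaks. Per the submitters' processing notes, the authors used Bowtie2 for alignment to mm9 and MACS2 for peak calling. Versions, thresholds, the role of the input and how both ChIP samples became 1 list are not given in these sources. The deposited values are chromosome, start and end positions in bp, with no score, so depth is unknown. All peaks lay within the mm9 chromosomes, whereas 55 ran past the mm10 ends (lengths from GenomeInfoDb 1.38.1, R 4.3.3). Positions are printed 1-based. Windows were assigned by peak start. A gap is the number of bases between neighbouring peaks. Lengths include assembly gaps. Python 3.11.15, numpy 2.4.6, pandas 2.3.3, scipy 1.17.1 and matplotlib 3.10.9 were used. The functions for gaps, merging and the density ratio were tested on 20 simulated lists. Those for intervals and window counts were not. The block and the gene lists were chosen with earlier results of these data known. By rule, the text names the 5 fullest windows of 100 kb, the 5 widest peaks, the 5 largest linked groups with ties, the 5 longest gaps and the peaks at the edges. Items named beyond this rule include the other peaks wider than 500 bp and the fullest stretches linked over 10 kb. The analyses of motifs, transcription starts and genes with peaks that had been planned were not run, since an mm9 sequence and annotation were not used here.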

Additional observations from a re-analysis of the deposited data

How the results depend on the processing

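With peaks within 10000 bp merged, the ratio of block to rest fell from 4.28 to 2.95. Alternatives added after the data were seen gave 5.19 with the 6 dense windows alone and 4.17 with the rest counted from its first listed peak. Density chose the block, so that the ratio is above 1 in these settings says nothing of its stability. The share of peaks with a neighbour within 1 kb, 31.7%, against 28.6% on the rest, went to 27.1% for 500 bp (21.8% on the rest) and 43.9% for 2000 bp (34.2% on the rest), and to 21.03% among peaks wider than the median, where fewer peaks remain. Median width went from 155 to 160 bp with the 98 bp peaks left out, and that of the rest from 162 to 174 bp, so the gap between them widened. The number of linked groups went from 55 to 49 at 500 bp and 73 at 2000 bp, and that of the rest from 180 to 143 and 208. Shifting windows, also added later, by 500 kb gave a highest count of 80 in place of 86, and by 50 kb one of 17 in place of 18. Leaving out a replicate and a stricter peak threshold could not be run on 1 list without scores, and the alternatives for motifs, transcription starts and gene lists were not run. No paired analysis was possible because the deposited list does not separate the ChIP samples. Copy number, mappability and regions prone to artefact signal were not analysed here.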
